A study of Rattus norvegicus with 10 samples.

Results

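The genes described here are 7 genes of cilia and their dynein motors, measured by RNA sequencing in rat lung: Dnaaf1, Dnai2, Dnah7, Dnah17, Cfap52, Cfap70 and Evc. They were chosen by symbol, as Evc or as any symbol starting with Dnah, Dnai, Dnaaf, Cfap, Ccdc39, Tekt, Rsph or Drc, among the 1319 genes of the authors' deposited table, and no symbol starting with Ccdc39, Tekt, Rsph or Drc was in it. The samples were 5 libraries from Cmg2-KO rats and 5 from WT rats, all of lung of 8-week-old Sprague Dawley animals, an outbred strain. Cmg2, also called Antxr2, encodes a membrane protein that anthrax toxin uses to enter cells. The labels give the genotype only as Cmg2-KO, and how the allele was made, the sex of the animals and whether each library came from a separate animal could not be taken from the labels. Scaled counts below are the authors' read counts after division by a size factor for the library. Over the 1319 genes they added up to 1386578 to 1531531 in a library, and because the table holds selected genes the full depth is unknown. As checks of the tissue, Sftpb, a surfactant protein gene of the alveolar epithelium, stood at 42132.5 to 48746.6 scaled counts in Cmg2-KO and 45664.7 to 65236.9 in WT, and Scgb1a1, the club cell secretory protein gene, at 84205.3 to 175952.4 in Cmg2-KO and 143906.2 to 195238.1 in WT. None of the 12 ciliated cell markers looked for, such as Foxj1 and Tppp3, was in the table. The table holds only genes with an unadjusted p under 0.05 in the authors' comparison of the genotypes, so their absence does not show absence from the lung. The label was therefore not checked on these markers, and other cilia genes of the table are described below.

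A motile cilium is a microtubule axoneme whose beating is driven by dynein motors, arranged as outer and inner arms along the doublet microtubules. The arms are built in the cytoplasm with the help of assembly factors before they are carried into the cilium. In lung, motile cilia cover the multiciliated cells of the airways, where they move mucus, and loss of dynein arm genes in humans causes primary ciliary dyskinesia. The primary cilium is a different, non-motile organelle of many cell types that receives hedgehog signals. Dnaaf1, Dnai2, Dnah7, Dnah17, Cfap52 and Cfap70 belong to motile axonemes, and Evc to the primary cilium. RFX transcription factors, which bind a palindromic site called the X-box, and the forkhead factor FOXJ1 are the known regulators of motile cilia genes.

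Promoters of the genes are shown because a pair of the dynein genes carry an X-box palindrome just before their start, with the same arms and different bases between them. RefSeq promoters of the rat build GRCr8, each of 300 bases with 250 before and 50 after a start site, were matched by symbol for 5 of the 7 genes (Dnai2, Dnah7, Dnah17, Cfap70 and Evc). The X-box was searched on both strands as GTTGCNNNGCAAC, and capitals mark it in the sequences of Dnai2 (chr10:100258772-100259071, plus strand) and Dnah7 (chr9:62756566-62756865, minus strand), printed 5′ to 3′ along the gene.
Dnai2: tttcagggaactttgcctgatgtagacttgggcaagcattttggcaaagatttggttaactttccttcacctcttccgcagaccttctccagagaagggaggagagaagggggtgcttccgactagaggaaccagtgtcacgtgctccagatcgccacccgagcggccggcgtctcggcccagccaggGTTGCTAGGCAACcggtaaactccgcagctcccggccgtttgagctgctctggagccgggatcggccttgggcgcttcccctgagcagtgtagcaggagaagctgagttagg
Dnah7: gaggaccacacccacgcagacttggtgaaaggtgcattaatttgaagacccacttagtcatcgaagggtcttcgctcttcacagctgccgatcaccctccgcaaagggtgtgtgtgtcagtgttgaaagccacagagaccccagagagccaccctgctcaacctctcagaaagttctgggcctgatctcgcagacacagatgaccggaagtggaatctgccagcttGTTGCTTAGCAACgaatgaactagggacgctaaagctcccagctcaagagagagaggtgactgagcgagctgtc

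The palindrome lies 62 to 50 bases before the start of Dnai2 and 24 to 12 bases before that of Dnah7. Of the 33469 rat promoters of this length, 93 hold it, which is 0.278%. The motif was chosen after the promoters were seen, so this share is a description and no test of enrichment. The start used for Dnah7 is 3889 bases inside the outermost end of the RefSeq gene, that for Cfap70 189 bases and that for Evc 65 bases. Promoters of Dnah17, Cfap70 and Evc do not hold the palindrome. A single arm of the palindrome, GTTGC, occurs in 35.1% of all rat promoters and was found in those of Dnai2, Dnah7, Cfap70 and Evc, with the arms of the palindromes counted too. Values of Cfap70 followed those of Dnai2 across libraries, and those of Evc, which also holds the arm, did not (below). No link between the arm and the correlation was tested. In the sequence of Cfap70 (chr15:3901483-3901782, plus strand) the arm is in capitals. It lies 133 to 129 bases before the start used, but inside the outermost end of the RefSeq gene.
Cfap70: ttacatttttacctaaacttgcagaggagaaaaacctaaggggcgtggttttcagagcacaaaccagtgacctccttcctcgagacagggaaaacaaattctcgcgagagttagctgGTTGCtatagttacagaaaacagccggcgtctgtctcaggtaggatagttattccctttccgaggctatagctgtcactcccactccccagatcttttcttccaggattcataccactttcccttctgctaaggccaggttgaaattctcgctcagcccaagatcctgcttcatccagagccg
The forkhead heptamer TGTTTAC, searched on both strands, is in 3.78% of all promoters and in none of the 5 matched here. These matches are letters in a window and were not tested as binding sites.

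All 7 genes had a lower mean in Cmg2-KO than in WT, and in each the libraries of the genotypes overlapped, so that 0 of 7 had every Cmg2-KO library below every WT library, against 7.11% of the genes fitted below. The difference of the Cmg2-KO mean from the WT mean was -33.2% to -30.7% for Dnah7, Dnai2, Dnaaf1 and Dnah17, and -21.8% to -17.5% for Cfap52, Evc and Cfap70. The comparison chose the genes, since the table holds only genes with an unadjusted p under 0.05 in the authors' deposited table, so these differences are a description. That criterion was met by 6.63% of the 19894 genes behind the authors' adjustment, and by 3.43% in the lower direction. In the authors' deposited table the unadjusted p of the 7 genes ran from 0.015 for Dnaaf1 to 0.0492 for Cfap70, the gene nearest to the limit, and genes above the limit were not analysed here. Their adjusted p in the authors' deposited table ran from 0.51 to 0.753, and 0 of 7 were under 0.05, against 5.46% of the table's genes. In limma, fitted on 1308 genes of the table, 0 of 7 passed an adjusted p of 0.05, against 0.229% of the genes fitted, and 5 of 7 had an unadjusted p under 0.05 and were lower, against 39.3% of the genes fitted. The choice of genes used this comparison, so nothing is read from these counts. All 7 genes passed the filter on low values of that fit. The median log2 fold change of the 7 was -0.51, beside -0.15 over all genes fitted and -0.54 over the 677 genes fitted that were lower in Cmg2-KO (51.8% of those fitted). For the genes of motile axonemes, fewer ciliated cells and less RNA per ciliated cell cannot be told apart in a bulk sample of lung, and other causes were not tested. Evc belongs to the primary cilium of many cell types, so that statement does not cover it.

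**Figure D1:**
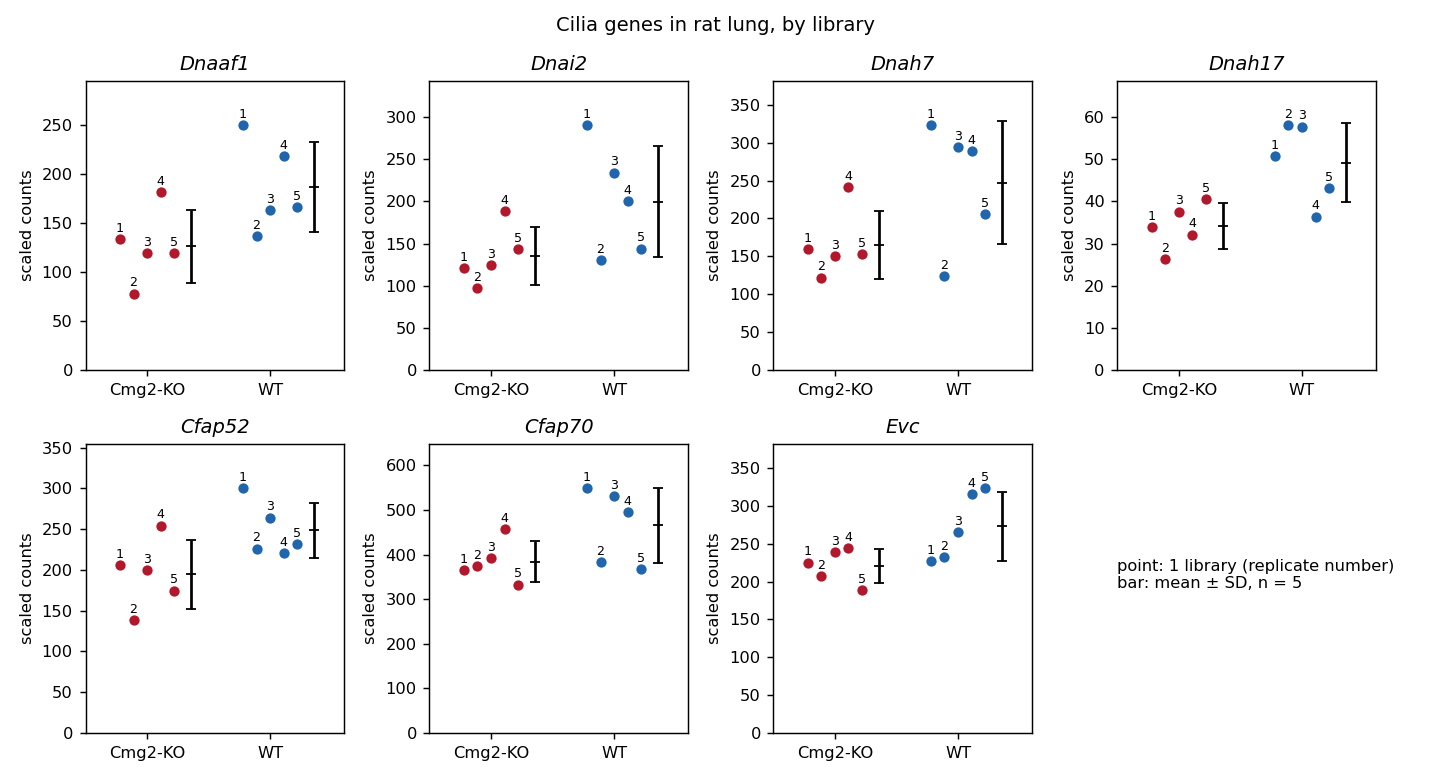
Scaled counts (y axis, from 0) of the 7 genes in 5 Cmg2-KO libraries (red) and 5 WT libraries (blue); each point is 1 library with its replicate number, and the black bar is the mean ± SD. The Cmg2-KO mean lies below the WT mean in every panel, the points of the genotypes overlap in every panel, and Cmg2-KO 4 is the highest Cmg2-KO library in 6 of the 7.

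Dnaaf1 (ENSRNOG00000015590; chromosome 19, 52217984 to 52245929, plus strand; coordinates here and below are those of the authors' table, whose genome build no source used here gives) encodes a factor that helps assemble dynein arms in the cytoplasm. It stood at 134, 78.2, 119, 181 and 119.6 scaled counts in Cmg2-KO 1 to 5, against 249.9, 137, 163, 218 and 166 in WT 1 to 5. Of the Cmg2-KO libraries, 4 lay below every WT library, and Cmg2-KO 4 lay among them. Its mean was 126 ± 37.1 scaled counts in Cmg2-KO and 187 ± 46.0 in WT (SD, n = 5 each), which in limma was a log2 fold change of -0.58 ± 0.23 (SE, adjusted p = 0.861).

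Dnai2 (ENSRNOG00000024523; chromosome 10, 103266296 to 103301544, plus strand) encodes an intermediate chain of the outer dynein arm. Its values were 121, 97.5, 124, 189 and 143 scaled counts in Cmg2-KO 1 to 5, against 291, 131, 234, 200.2 and 144 in WT 1 to 5. WT 2 and WT 5 lay within the Cmg2-KO range, and WT 1 stood highest. The log2 fold change was -0.53 ± 0.24 (SE; limma, adjusted p = 0.958), with means of 135 ± 34.3 scaled counts in Cmg2-KO and 199.9 ± 65.8 in WT (SD, n = 5 each).

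Dnah7 (ENSRNOG00000060984; chromosome 9, 60070739 to 60330125, minus strand) encodes a heavy chain, the ATP-driven motor subunit, of the inner dynein arm. It stood at 159.9, 122, 150.4, 241 and 153 scaled counts in Cmg2-KO 1 to 5, against 323, 124, 294, 289 and 206 in WT 1 to 5. WT 2 was nearly as low as the lowest Cmg2-KO library, Cmg2-KO 2, while the other WT libraries lay above 4 of the 5 Cmg2-KO libraries. Its means were 165 ± 44.7 scaled counts in Cmg2-KO and 247 ± 81.3 in WT (SD, n = 5 each), and its log2 fold change was -0.54 ± 0.27 (SE; limma, adjusted p = 1). A second gene model on chromosome 9 (AABR07067728.1, 59564498 to 59594416, minus strand), singled out after its values were seen, also has the description of dynein axonemal heavy chain 7 in the table. This model stood at 8.94 ± 5.12 scaled counts in Cmg2-KO and 18.3 ± 6.78 in WT (SD, n = 5 each), so the reads of Dnah7 may be split between models and its level is uncertain.

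Dnah17 (ENSRNOG00000003028; chromosome 10, 107029466 to 107158997, minus strand) encodes an outer-arm heavy chain known in humans from the sperm flagellum. It had the fewest reads of the 7 genes, with 33.9, 26.4, 37.6, 32.1 and 40.5 scaled counts in Cmg2-KO 1 to 5, against 50.8, 58.1, 57.7, 36.4 and 43.1 in WT 1 to 5. Here WT 4 was the lowest WT library, and 4 of the 5 WT libraries lay above every Cmg2-KO library. Means were 34.1 ± 5.42 scaled counts in Cmg2-KO and 49.2 ± 9.42 in WT (SD, n = 5 each), and the log2 fold change by limma was -0.51 ± 0.20 (SE, adjusted p = 0.855).

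Cfap52 (ENSRNOG00000037718; chromosome 10, 54470835 to 54512169, minus strand) encodes a WD-repeat protein of the axonemal doublet microtubules. It stood at 206, 138, 199, 254 and 175 scaled counts in Cmg2-KO 1 to 5, against 300.7, 226, 264, 220.4 and 231 in WT 1 to 5. As for Dnaaf1, 4 Cmg2-KO libraries lay below every WT library and Cmg2-KO 4 did not. The means were 194 ± 42.8 scaled counts in Cmg2-KO and 249 ± 33.7 in WT (SD, n = 5 each), or -0.37 ± 0.16 as a log2 fold change (SE, limma adjusted p = 0.895).

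Cfap70 (ENSRNOG00000007046; chromosome 15, 4285052 to 4350714, plus strand) encodes another protein of the motile axoneme. Its values were 366, 373, 393, 457 and 333 scaled counts in Cmg2-KO 1 to 5, against 549.5, 384, 531, 495 and 368 in WT 1 to 5. WT 2 and WT 5 fell within the Cmg2-KO range, as they did for Dnai2. Its log2 fold change, the smallest in size of the 7 genes, was -0.26 ± 0.13 (SE; limma, adjusted p = 1), with means of 384 ± 45.9 scaled counts in Cmg2-KO and 465 ± 84.2 in WT (SD, n = 5 each).

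Evc (ENSRNOG00000007564; chromosome 14, 78213635 to 78253266, plus strand) encodes a membrane protein at the base of the primary cilium that, with Evc2, passes on the hedgehog signal. It stood at 225, 207, 239, 244 and 189 scaled counts in Cmg2-KO 1 to 5, against 228, 232, 265, 315.5 and 324 in WT 1 to 5. WT 1, the highest WT library for 5 of the other genes, was the lowest WT library for Evc. The means were 221 ± 22.7 scaled counts in Cmg2-KO and 273 ± 45.2 in WT (SD, n = 5 each), or -0.29 ± 0.13 as a log2 fold change (SE, limma adjusted p = 0.895).

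Within Cmg2-KO, the highest and lowest libraries recurred from gene to gene, while in WT the lowest library varied. Cmg2-KO 4 was the highest Cmg2-KO library for 6 of the 7 genes and Cmg2-KO 2 the lowest for 5. WT 1 was the highest WT library for 5 of the 7, and the lowest was WT 2 for 3 genes, WT 4 for 2, WT 1 for 1 and WT 5 for 1. Without Cmg2-KO 4, the genotypes no longer overlapped for 2 of the 7 genes, Dnaaf1 and Cfap52, against 12.7% of the genes fitted under the same omission. Without WT 4 this held for 1 of the 7, Dnah17, against 10.1% of the genes fitted. Neither share is read as a result, since the comparison chose the genes.

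Set per length, the 7 genes differed in level by more than an order of magnitude. In scaled counts per kilobase of gene length, Cfap70 averaged 95.8 ± 11.4 in Cmg2-KO and 116 ± 21.0 in WT, and Cfap52 86.9 ± 19.1 in Cmg2-KO and 111 ± 15.1 in WT (SD, n = 5 each). Cfap70 was above Cfap52 in 7 of the 10 libraries, so their order was not the same throughout. Dnaaf1, Evc and Dnai2 formed a middle group, at 50.5 ± 14.8, 51.2 ± 5.27 and 45.5 ± 11.6 scaled counts per kilobase in Cmg2-KO and 74.6 ± 18.4, 63.2 ± 10.5 and 67.4 ± 22.2 in WT, with neighbours in the order exchanging places in 3 to 4 of the 10 libraries. The heavy chains were lowest in every library. Dnah7 averaged 14.8 ± 4.02 scaled counts per kilobase in Cmg2-KO and 22.2 ± 7.30 in WT, and Dnah17 2.52 ± 0.40 in Cmg2-KO and 3.64 ± 0.70 in WT.

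**Figure D2:**
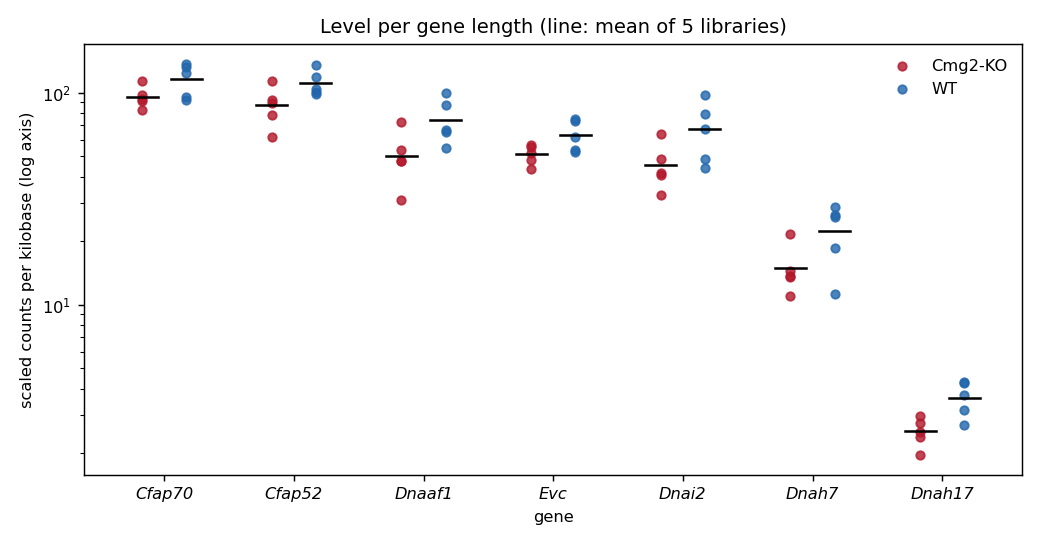
Level of each gene in scaled counts per kilobase of gene length (log axis), with 5 Cmg2-KO libraries in red on the left and 5 WT libraries in blue on the right of each gene; black lines are means. Cfap70 and Cfap52 are highest, Dnah7 and Dnah17 lowest, and Dnah17 averages 2.52 in Cmg2-KO and 3.64 in WT.

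How the genes varied together was measured on deviations from the mean of each genotype, which hold no difference between the genotypes. Over the 10 libraries, Dnai2, Dnah7, Dnaaf1, Cfap52 and Cfap70 moved together, with Pearson r between 0.59 and 0.91 in their 10 pairs and a mean of 0.76. The 6 pairs with Dnah17 had a mean r of -0.05 and the 6 with Evc a mean r of 0.0013, and in none of these was the adjusted p under 0.05. The 5 genes were grouped after the values were seen. Genes of 1 library share that library's size factor, so they are not independent, and between any 2 of the 1093 genes with a mean of at least 20 scaled counts the median r was 0.01, with a 90th percentile of 0.51.

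The closest pair was the intermediate chain Dnai2 and the heavy chain Dnah7. Both promoters hold an X-box palindrome, but those of Dnaaf1 and Cfap52 were not analysed here, and no link between motif and correlation was tested. Their deviations gave r = 0.91 (exact permutation test within genotype, two-sided, p = 0.000417, adjusted p = 0.00875 over 21 pairs) and Spearman's rho = 0.93 (exact permutation p = 0.00111, adjusted p = 0.0233), n = 10. Without WT 1 and WT 2, the libraries whose Dnai2 deviation lay farthest from the median, r was 0.94. With such a pair of libraries left out, r over the 10 pairs ran from 0.51 to 0.94. In 7 of the 21 pairs the adjusted p for r was under 0.05, all of them among the 5 genes, and 1 of these, Dnai2 with Dnah7, also passed for rho. The log2 ratio of Dnai2 to Dnah7 averaged -0.29 in Cmg2-KO and -0.29 in WT. Its SD within genotypes was 0.20, against 0.42 for Dnai2 and 0.47 for Dnah7 alone.

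**Figure D3:**
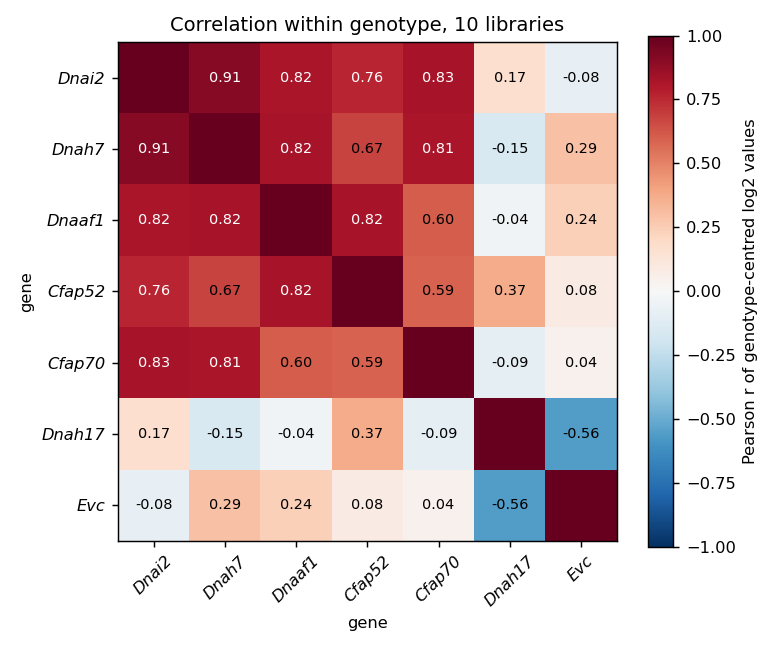
Pearson r between each pair of the 7 genes, from log2(scaled count + 1) values centred on the mean of each genotype, over 10 libraries. The block of Dnai2, Dnah7, Dnaaf1, Cfap52 and Cfap70 holds values from 0.59 to 0.91, while pairs with Dnah17 or Evc run from -0.56 to 0.37.

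Other genes of the table followed the same libraries. Among 880 other genes with an established symbol and a mean of at least 20 scaled counts, the 5 with the highest r to the mean deviation of the 6 motile-cilia genes were Spata18, Spag8, Wdr63, Ribc2 and Erich3, with r from 0.98 to 0.95 over the 10 libraries. That mean includes Dnah17, which did not move with the others. Of the 880 genes, 51 had r above 0.8, the club cell gene Scgb1a1 among them, so following these libraries was not particular to cilia genes. Wdr63, named Dnai3 in RefSeq, is a dynein intermediate chain of the inner arm, and Spag8 and Ribc2 encode proteins inside the doublet microtubules. Spata18 stood at 365, 238, 322, 504 and 326 scaled counts in Cmg2-KO 1 to 5, against 768, 326, 603, 552 and 380 in WT 1 to 5, with Cmg2-KO 4 and WT 1 highest as for Dnai2. Wdr63 averaged 232 ± 61.7 scaled counts in Cmg2-KO and 323 ± 88.9 in WT (SD, n = 5 each). The genes most like Evc were Hspb6, Cygb and Med11, with r of 0.81, 0.80 and 0.77, and none of the 5 above was among them.

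Markers of other cells differed in how they followed the motile-cilia genes across libraries. Of 11 markers of secretory and basal airway cells, 4 were in the table, Scgb1a1, Cyp2f4, Agr2 and Bpifb1. Their summed level ran from 84396 to 176966 scaled counts in Cmg2-KO and from 144340 to 196851 in WT, nearly all of it Scgb1a1. Cyp2f4 ran from 120 to 859 scaled counts in Cmg2-KO and from 336 to 1223 in WT. Agr2 ran from 57.1 to 123 in Cmg2-KO and 86.1 to 229 in WT, and Bpifb1 from 13.2 to 31.2 and 11.4 to 162. Scgb1a1 was highest in the same libraries as Dnai2, with 175952.4 scaled counts in Cmg2-KO 4 and 195238.1 in WT 1, and its r to the mean deviation of the 6 genes was 0.80 (rank 50 of 880). Smooth muscle Myh11 and fibroblast Dcn had r of 0.66 and 0.66, alveolar Sftpb -0.54 and mesothelial Msln -0.30. Of 5 smooth muscle markers 4 were in the table, with a summed level of 18457.6 to 27954.6 scaled counts in Cmg2-KO and 22105.2 to 36533.5 in WT. For 2 of 5 fibroblast markers the sum was 1508.62 to 2668.51 in Cmg2-KO and 1957.14 to 5256.31 in WT, and for 4 of 5 mesothelial markers 2328.28 to 4451.19 in Cmg2-KO and 1940.11 to 3347.98 in WT. For Evc, r to Scgb1a1 was 0.08. The part of these cell types in the difference between genotypes was not tested.

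**Figure D4:**
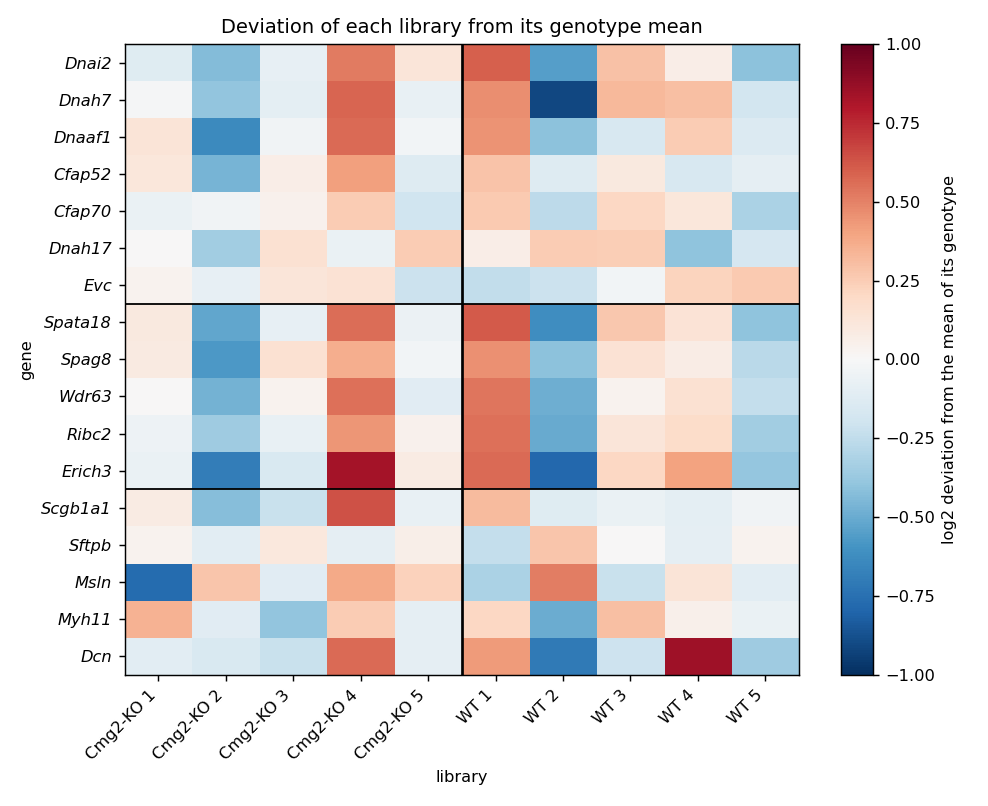
Deviation of each library from the mean of its genotype in log2(scaled count + 1), colour scale from -1 to 1, for the 7 genes (top), the 5 genes most like the motile-cilia genes (middle) and 1 marker each of secretory, alveolar, mesothelial, smooth muscle and fibroblast cells (bottom); Cmg2-KO libraries are left of the black line and WT libraries right of it. In several rows, Cmg2-KO 4 and WT 1 lie above 0 and Cmg2-KO 2 and WT 2 below it. These rows are Dnai2, Dnah7, Dnaaf1, Cfap52, Cfap70 and the 5 alike genes, and also the markers Scgb1a1, Myh11 and Dcn. For Evc, WT 1 lies below 0.

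The rest of the cilia machinery was examined by lists, where a gene outside the table has no value here. Of 37 genes of axonemal dyneins and their assembly, 5 were in the table, the 4 dynein genes above and Wdr63, and all 5 were lower in Cmg2-KO. Of 76 genes of axoneme structure, 6 were in the table, 5 of them lower. Besides Cfap52 and Cfap70 these were Spag8, the radial spoke gene Ropn1l at 47.3 ± 14.8 scaled counts in Cmg2-KO and 67.7 ± 17.5 in WT, Mdh1b at 32.1 ± 4.26 in Cmg2-KO and 47.2 ± 14.8 in WT (SD, n = 5 each), and Lrrc23. Lrrc23, also a radial spoke gene, was the exception in direction. It stood at 10.4, 42.2, 7.31, 296 and 19.8 scaled counts in Cmg2-KO 1 to 5 and at 27.4, 16.6, 8.88, 14.2 and 6.31 in WT 1 to 5, so that its higher mean in Cmg2-KO rested mainly on Cmg2-KO 4. The share of genes in the table was 13.5% for the dynein list and 7.89% for the structure list. Beside these, it was 6.63% for the 19894 genes behind the authors' adjustment. List genes were counted whether or not they were among those 19894, so the shares are not strictly alike. Of the genes fitted, 51.8% were lower in Cmg2-KO, and no test was made of either list.

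Of 40 markers and regulators of ciliated cells, 4 were in the table (10%), and all 4 were lower in Cmg2-KO. The table holds 6.63% of the 19894 genes behind the authors' adjustment, and 51.8% of the genes fitted were lower. The comparison chose the genes, so nothing is read from the counts in these lists. Rfx4, of the RFX family, was at 2.83 ± 1.81 scaled counts in Cmg2-KO and 17.3 ± 8.28 in WT (SD, n = 5 each). Its adjusted p was 0.383 in limma, against 0.00999 as listed in the authors' deposited table. In Cmg2-KO it ran from 0.869 to 4.73, which is only a few reads. WT 1, the highest WT library for 5 of the 7 genes, was the lowest for Rfx4, at 7.11 against 27.3 in WT 4. A link between Rfx4 and the cilia genes was not tested. The other markers in the table were Ccdc33, Dcdc2b and Ttc29, with log2 fold changes of -0.86 ± 0.36, -0.38 ± 0.17 and -0.54 ± 0.28 (SE). Of 46 genes of intraflagellar transport and the BBSome, which carry cargo along cilia, 1 was in the table (2.17%). This was Wdr60, a chain of the dynein that moves cargo back to the cell body. Wdr60 stood at 412.5 ± 40.0 scaled counts in Cmg2-KO and 490.04 ± 47.2 in WT. None of 33 basal body and transition zone genes was in the table. Of 37 hedgehog genes of the primary cilium other than Evc, 2 were in it (5.41%), the planar polarity effectors Intu and Wdpcp. Their log2 fold changes were -0.35 ± 0.15 and -0.24 ± 0.10 (SE), and neither Evc2 nor Smo, Ptch1 or Gli1 was in the table.

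**Figure D5:**
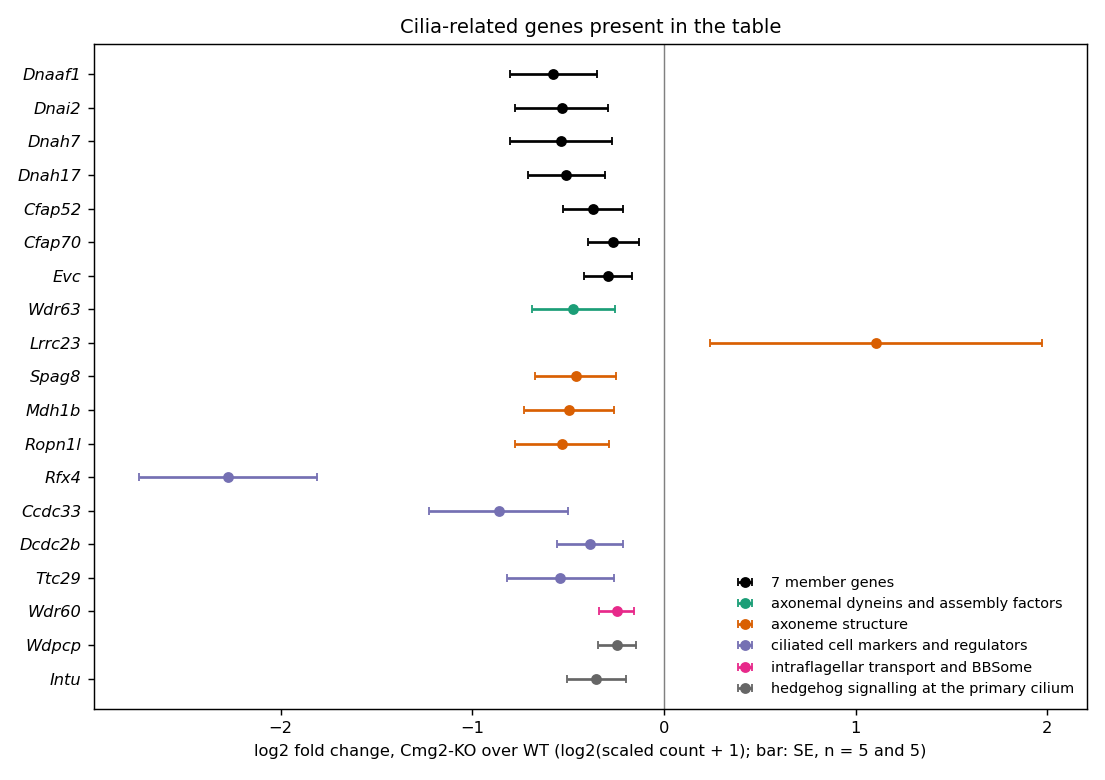
Log2 fold change (x axis, Cmg2-KO over WT, from log2(scaled count + 1) values) with its SE by limma, n = 5 and 5, for the 7 genes (black) and for other genes of the cilia lists in the table, coloured by list. Every gene shown but Lrrc23 lies below 0, and Rfx4 is farthest from 0; all were chosen for this comparison by the table's limit on p.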

How the data were processed

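Libraries were built with a NEBNext kit on total RNA of frozen lung, per the labels' protocols. The submitters' processing notes name HISAT2 2.0.5 for alignment and featureCounts 1.5.0-p3 for counting, with no build or strand setting, so reads of overlapping antisense genes may be included. The 10 library columns hold a signal, per the file headers and values: the authors' read counts divided by 1 size factor per library. Every value was a whole multiple of 1 read within 0.02 reads (100% of values), and 1 read was worth 0.869 to 1.11 scaled counts. The deposited table also holds the authors' log2 fold change, fold (ratio), p-values and gene length, for genes with p under 0.05 in this comparison only.

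Limma 3.58.1 (trend and robust) in R 4.3.3 was fitted on log2(scaled count + 1) over the 1308 genes above 0.5 scaled counts in 5 or more libraries. Benjamini-Hochberg adjustment used the 19894 genes that the authors' adjusted p-values imply. A check of the fit on simulated data used larger changes than those of the cilia genes and adjusted over fewer genes, so it does not bear on changes of their size. Fold changes understate low genes, and variances come from genes selected for this comparison. Correlations used values centred on the genotype mean, with 14400 permutations of libraries within genotype. Counts of reads recovered from the deposited signal were tested with edgeR 4.0.16 and DESeq2 1.42.0 in 9 libraries, WT 4 being left out because a further check on its low values did not recognise its step of 1.01 scaled counts a read, although its values also came out whole. No label ties libraries to separate animals, so p-values reflect only the differences between libraries, possibly technical ones.

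The rule for named genes took all 7 genes, every list gene in the table (up to 8 per list) and the genes most alike in deviation. List symbols were matched to RefSeq (GRCr8) names, and 4 that matched none were left out. The genes, lists and tests were chosen with earlier results of these data known, and the motifs after the promoters were seen.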

Additional observations from a re-analysis of the deposited data

Results flagged for a closer look

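Single libraries standing apart were looked for with Dixon's criterion for 5 values (a gap to the nearest library above 0.71 of the whole range, on log2 values). Of 50 sets of 5 libraries, from 25 genes that comprise the 7 described above, the other cilia-list genes and those most alike, 1 met it, where chance at 1 in 20 gives about 2.5. That gene was Intu, a planar polarity effector of ciliogenesis. Cmg2-KO 3 had 53.3 scaled counts of Intu, while the remaining Cmg2-KO libraries had 59.1 to 59.7. None of the 7 genes had such a library.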

How the results depend on the processing

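All 7 genes stayed lower in Cmg2-KO in every alternative fit run, and none passed an adjusted p of 0.05 in any. The fits reuse the libraries whose comparison chose the genes, so the kept direction is a description and no independent support. The median over them, in log2 fold change, was -0.55 to -0.39 when 1 library was left out, and -0.52 to -0.46 otherwise. The number of genes passing in the whole table was 3. It was 1 to 6 with 1 library left out, 0 with the replicate block, 1 with edgeR and 45 with DESeq2 on recovered reads. Same-numbered libraries of the genotypes had deviations correlated between -0.02 and 0.11, and 1 of the 5 Cmg2-KO libraries correlated best with its own number, so the numbers were not taken as pairs. With the replicate block that median was -0.51, 899 genes of the table had an unadjusted p under 0.05, and Dnaaf1 had an adjusted p of 0.717 (limma). The mean correlation over the 21 pairs was 0.38, 0.31 with rank correlation and 0.29 to 0.42 with 1 library left out. Leaving out WT 1 moved the log2 fold change of Dnai2 to -0.39, and leaving out Cmg2-KO 2 that of Cfap52 to -0.25. Single log2 fold changes reached -0.77 for Dnah7 without WT 2 and -0.72 for Dnaaf1 without Cmg2-KO 4. Without Cmg2-KO 2, 0 of the 7 genes were lower at an unadjusted limma p under 0.05 (26.8% of all genes fitted), and without Cmg2-KO 4, 7 were (33.7%). The depth of the libraries is unknown, and the table shows no cilia gene above its limit on p.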
